A study of Mus musculus with 9 samples.

Results

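The genes described here encode subunits of BAF, the mammalian SWI/SNF complex that uses ATP to move nucleosomes. They are 5 subunits known from progenitor forms of the complex (Actl6a, Phf10, Dpf2, Ss18 and Smarcc1) and 5 known from neuronal forms (Actl6b, Dpf1, Dpf3, Ss18l1 and Smarcc2). Every probe set annotated to exactly 1 of these gene symbols was taken, which gave 22 of the 34945 probe sets with 1 symbol: 14 for the progenitor and 8 for the neuronal subunits. The study used cells that the submitters captured by laser as neural crest or its derivatives, to follow DNA repair genes through mouse development. E8.5 embryos at neural tube closure, dorsal root ganglia of E13.5 embryos and the adrenal medulla of adults at P90 (3 months) gave 3 arrays each, named biological replicates in the titles. Strain, sex, genotype and the number of animals per capture are not given in the sources used here. Stage and tissue change together, and no comparison separates them.

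As background, neural progenitors build BAF with the actin-related protein Actl6a, the plant homeodomain protein Phf10 and the scaffold Ss18, and cells that leave the cycle to become neurons replace them with the paralogs Actl6b, Dpf1 or Dpf3, and Ss18l1 (also called CREST). The core scaffold Smarcc1 likewise gives way in part to its paralog Smarcc2, while Dpf2 belongs to the same family as Dpf1 and Dpf3 and is found in many cell types. The exchange is known from brain and is needed for dendrite growth. In progenitors the repressor Rest holds down microRNAs that act against Actl6a messenger RNA.

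Values are probe set signals on a linear scale, and means are given ± SD. Changes are differences of log2(signal + 16) ± SE from 1 limma fit of all 9 arrays and 13748 genes, each represented by its brightest probe set, and a gene was called at a Benjamini-Hochberg adjusted p under 0.05. All 10 genes passed the filter on low values, with 18 of their 22 probe sets. Array medians were 38.3 to 48.2. Array means were 269 to 281 at E8.5, 328, 179 and 297 at E13.5, and 306, 225 and 175 at P90. The log2 signals correlated at r = 0.877 to 0.986 within stages and 0.809 to 0.91 between them. RNA integrity was read from Actb, whose 3' control probe set exceeded its 5' one by 6.69 (log2) on E13.5 replicate 2 and by 0.85 to 4.70 on the other arrays; this is called the Actb difference. The labelled tissues were checked against marker genes. Against E8.5, 8 of 9 tested pan-neuronal genes rose at E13.5 and 7 of 7 tested chromaffin genes at P90, while 11 of 11 genes of cycling cells fell in both. Of 10 sensory neuron genes listed, 5 were tested and 3 rose at E13.5, Ntrk3 and Prph not being called. At E13.5, 3 of the 7 chromaffin genes rose too. Of 10 neural crest and progenitor genes, 6 fell at E13.5 and 8 at P90. Of 15 pan-neuronal genes listed, 6, Tubb3 and Stmn2 among them, were not tested, and each of these had empty cells in the table. Markers of other cells moved as well. At E13.5 against E8.5, 3 of 5 epithelial genes fell (Krt8 from 861 to 42.1), while 3 of 4 mesenchymal genes (Dcn from 26.3 to 2201), 3 of 5 glial and 2 of 5 endothelial genes rose. At P90 against E8.5, 5 of 5 epithelial genes fell and 3 of 4 macrophage genes, 1 of 5 glial, 1 of 5 endothelial and 1 of 4 mesenchymal genes rose. Of 5 red cell genes tested against E8.5, 2 rose and 1 fell at E13.5, and 1 rose and 2 fell at P90. Among them, Hbb-y had means of 3555, 7713 and 14.2 at E8.5, E13.5 and P90. All genes tested were called higher in 9.27% and lower in 7.22% at E13.5, and in 10.9% and 12.5% at P90. Of 8 adrenal cortex genes listed, 4 were tested, and only Nr5a1 was called against E8.5. It rose from 38.7 to 200.1 at E13.5 and 382 at P90. Star and Cyp11b1 were among those not tested. The part of these cells in the results below was not tested.

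Some arrays stood apart within their stage, as sums over the tested genes with no empty cell showed. At E8.5, replicate 1 gave 919 over 4 epithelial genes against 2280.0 and 2594, and 511 over 2 red cell genes against 1769 and 3588. Over the 5 progenitor subunits the E8.5 arrays summed to 13164, 13063 and 12652. Over 6 pan-neuronal genes the E13.5 arrays summed to 17558, 7430.3 and 13087, replicate 2 being lowest in 5 of the 6 (not in Dcx). This was not particular to neuronal genes. Replicate 2 was also lowest over cycling genes (2534 against 6319.7 and 4746) and mesenchymal genes (3949 against 12861 and 7218). It was not lowest over red cell, macrophage or epithelial genes. Its mean signal was 179 against 328 and 297. Over 6 chromaffin genes the P90 arrays summed to 12207, 23646 and 22871, replicate 1 being lowest in each. Kdr, an endothelial receptor, was 2728 on P90 replicate 1 against 123 and 179.6, while Tie1, another, was 25.3 against 34.4 and 38.2. In bulk captures, fewer cells of a type and less RNA per cell cannot be told apart, and the part of overall signal was not tested.

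Actl6a, Phf10 and Smarcc1, all progenitor subunits, were lower after E8.5. The 1 neuronal call, Actl6b, was a gene that entered the test only through the stages where it was high, and with no filter on low values 0 neuronal subunits were called (adjusted p = 0.0506 at E13.5 and 0.0579 at P90 for Actl6b). At E13.5 against E8.5, 3 of 5 progenitor subunits fell (Actl6a, Phf10 and Smarcc1) and 1 of 5 neuronal subunits rose, where 7.22% of all genes tested were called lower and 9.27% higher (16.5% in all). The same 3 progenitor genes and the same neuronal gene were called at P90 against E8.5, where 12.5% of all genes were called lower and 10.9% higher (23.3% in all). These 2 comparisons share the E8.5 arrays. At P90 against E13.5, limma called 0 of the 10 genes, where 3.54% of all genes were called higher and 5.94% lower (9.48% in all). There, Smarcc1 and Dpf1 were lower at an unadjusted p under 0.05, and Smarcc1 was called in 3 of 24 alternative settings.

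The median change of the progenitor subunits was -1.46 at E13.5 and -1.91 at P90 against E8.5, and that of the neuronal subunits 0.75 and 0.71, where the median of all genes was 0.02 and 0.00. At P90 against E13.5 the medians were -0.35 for the progenitor and -0.10 for the neuronal subunits, and -0.05 for all genes. A limma F-test for any difference between the stages called 4 of the 10 (Actl6a, Phf10, Smarcc1 and Actl6b) and 26.3% of all genes. By range alone, 4 of 5 progenitor subunits (all but Dpf2) lay under every E8.5 array at E13.5 and 4 of 5 (all but Ss18) at P90, against 17.1% and 23.6% of all genes. Of the neuronal subunits, Actl6b and Dpf1 lay above every E8.5 array at E13.5, and Actl6b, Ss18l1 and Smarcc2 at P90, against 18.6% and 20.3% of all genes. Between E13.5 and P90, Smarcc1 and Dpf1 lay wholly lower, as did 13.9% of all genes, and 0 members wholly higher, against 9.59%.

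Over probe sets, 5 of the 12 kept for progenitor subunits were called lower both at E13.5 and at P90 against E8.5, where 6.98% and 11.2% of kept probe sets were, and all 12 estimates were below 0. Of 6 kept for neuronal subunits, 1 was called higher in each, against 7.99% and 9.57%. Between E13.5 and P90, 0 of the 18 were called, against 2.88% higher and 4.6% lower.

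No progenitor subunit was called higher and no neuronal subunit lower, in any comparison or in any of 24 alternative settings. In the fit above, 3.54% to 10.9% of all genes were called higher and 5.94% to 12.5% lower, so 0 of 5 stands near these shares. The settings reuse the same 9 arrays.

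**Figure D1:**
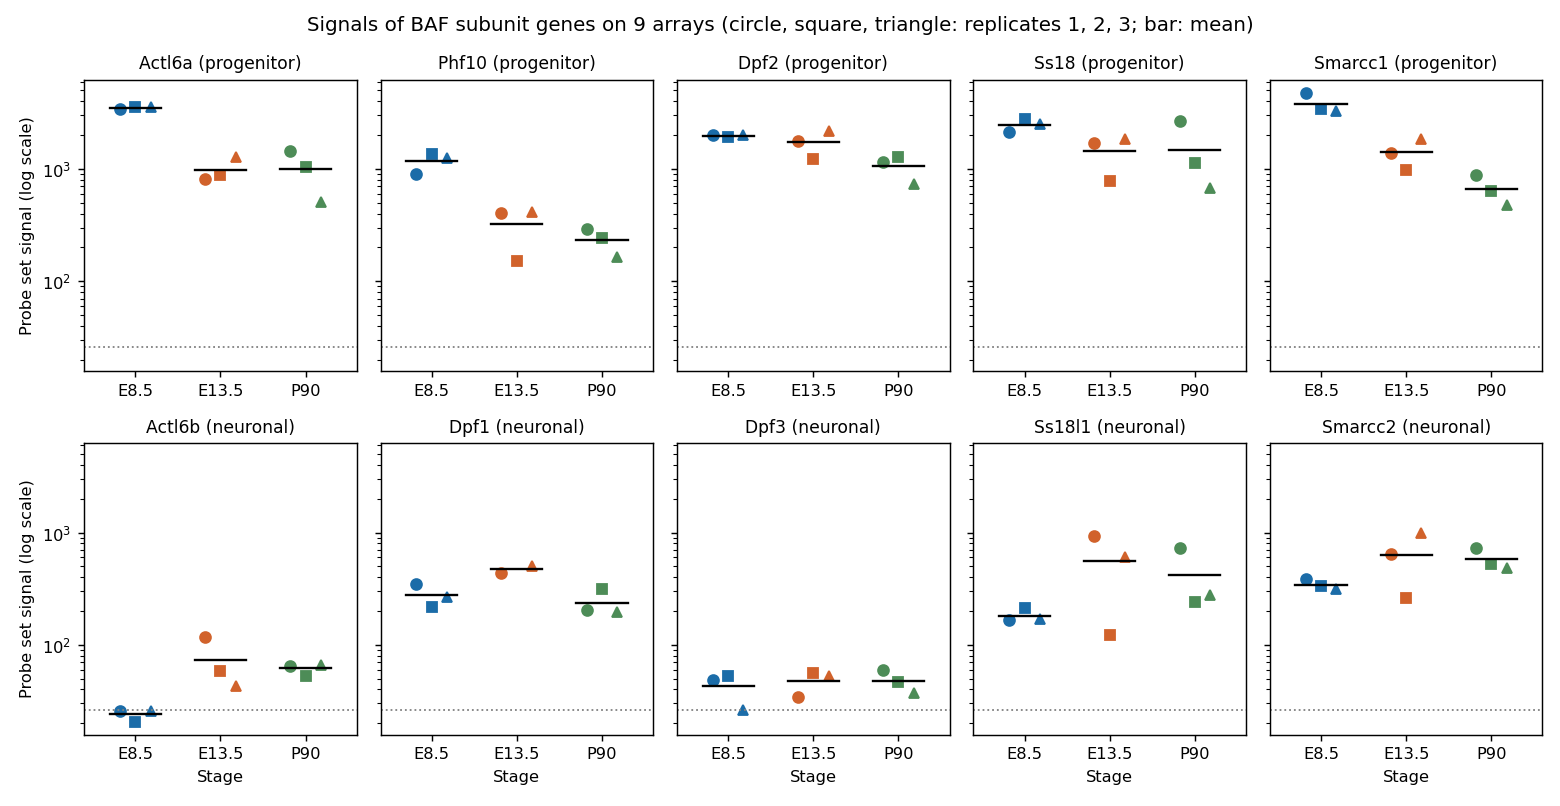
Probe set signal (log scale) of each gene's brightest probe set on the 9 arrays by stage; symbols are replicates, bars are means, and the dotted line is the filter level of 26.1. Actl6a, Phf10 and Smarcc1 lie lower on every E13.5 and P90 array than on any E8.5 array, and Actl6b lies under the dotted line at E8.5 only.

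**Figure D2:**
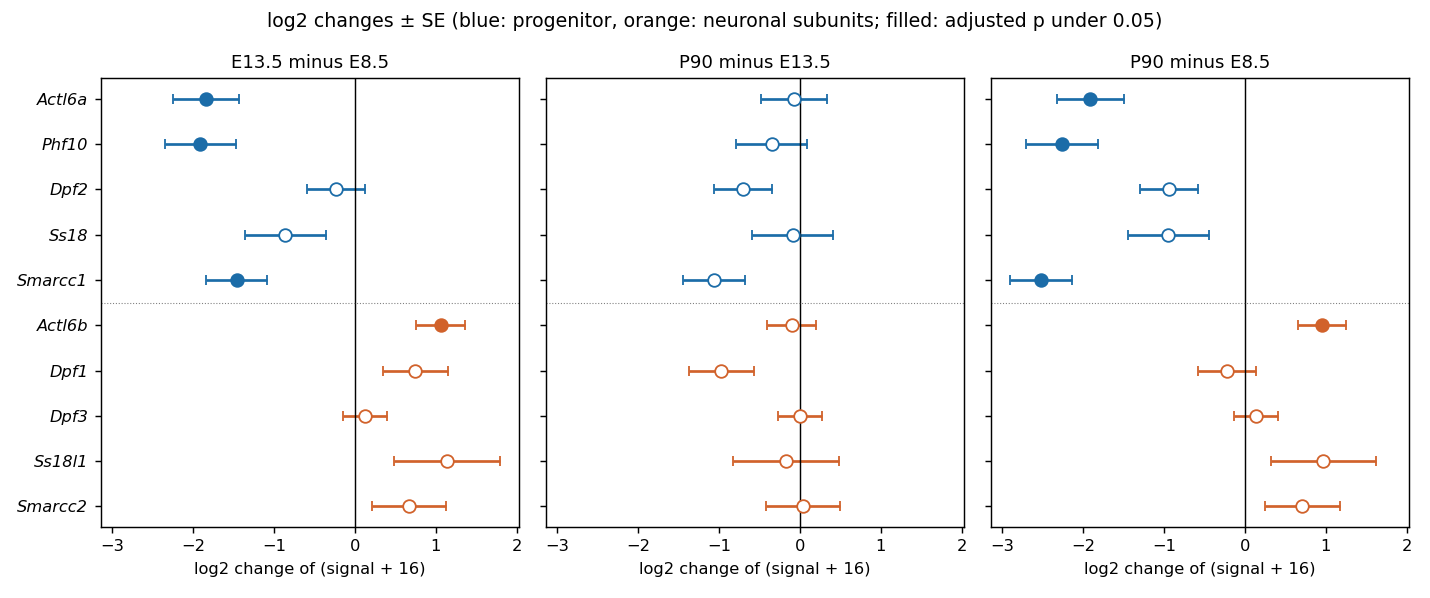
Changes of log2(signal + 16) with SE for the 10 genes in the 3 comparisons, with filled symbols at a limma adjusted p under 0.05. Filled symbols appear in both comparisons with E8.5, for Actl6a, Phf10, Smarcc1 and Actl6b, and none at P90 minus E13.5.

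Actl6a, an actin-related subunit that is also part of the INO80 and TIP60 complexes, had signals of 3399, 3589 and 3558 on the E8.5 arrays. They were 807, 889 and 1267 at E13.5 and 1455, 1048 and 512 at P90. Every array of the later stages lay under every E8.5 array, and the later stages overlapped each other. The mean fell 3.56-fold to E13.5 (log2 change -1.84 ± 0.41, limma adjusted p = 0.00957) and 3.5-fold to P90 (-1.91 ± 0.41, limma adjusted p = 0.00586). Between E13.5 and P90 the change was -0.07 ± 0.41 (limma adjusted p = 0.958).

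This brightest probe set carries the suffix _x_at, which marks probes that can bind other transcripts. The other Actl6a probe sets gave 879.8, 551 and 575 at E8.5 against 146 to 314 at E13.5 and 201 to 243 at P90 (1429883_at), and 781, 1147 and 961 against 43.5 to 296 and 109.9 to 429 (1416569_at). Both fell too. In a limma fit of all 24013 kept probe sets their changes to E13.5 were -1.56 ± 0.38 (adjusted p = 0.017) and -2.65 ± 0.63 (adjusted p = 0.0163). Actl6a lost its call when the 3 arrays with the largest Actb difference of their stage (E8.5 replicate 1, E13.5 replicate 2 and P90 replicate 2) were left out (-1.80, limma adjusted p = 0.0896 at E13.5, and -2.03, 0.0545 at P90). It kept the call in the other 23 settings, in which the limma adjusted p at E13.5 went down to 0.00333. With 1 array left out the adjusted p went up to 0.0482 at E13.5 and 0.0309 at P90.

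Actl6b, the neuronal paralog of Actl6a, was measured by 1 probe set with low signals. They were 25.9, 20.7 and 25.6 at E8.5, then 117, 57.8 and 42.6 at E13.5 and 65.2, 53.1 and 66.7 at P90. No E8.5 array reached any array of the later stages. The mean went from 24.1 ± 2.93 to 72.4 ± 39.3 and 61.6 ± 7.49 (n = 3 each), a log2 change of 1.06 ± 0.30 at E13.5 (limma adjusted p = 0.0324) and 0.95 ± 0.30 at P90 (limma adjusted p = 0.039). All E8.5 signals were under the filter level of 26.1, so the gene entered the test through its E13.5 and P90 arrays. Its direction held in all 23 settings that tested it, but the E13.5 call was made in 15 of them and the P90 call in 11. Leaving out any E8.5 array ended both calls (limma adjusted p from 0.0741 to 0.132), leaving out E13.5 replicate 1 ended the first (0.72, limma adjusted p = 0.0801), and leaving out any P90 array ended the second (0.0681 to 0.112). The added constant of 16 sets the size of this change: it was 1.43 at E13.5 with a constant of 1 and 0.59 with 64.

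The promoters of the genes that were called are shown because 3 of them fell together while Actl6b rose. The RefSeq table (GRCm38.p6) matched 9 of the 10 genes, and the 250 bases before each gene start are printed 5' to 3' on the gene's strand, with motif matches in capitals: chr3:32708296-32708545 on the plus strand for Actl6a, chr17:14961261-14961510 on the minus strand for Phf10, chr9:110131774-110132023 on the plus strand for Smarcc1 and chr5:137553296-137553545 on the plus strand for Actl6b.
Actl6a: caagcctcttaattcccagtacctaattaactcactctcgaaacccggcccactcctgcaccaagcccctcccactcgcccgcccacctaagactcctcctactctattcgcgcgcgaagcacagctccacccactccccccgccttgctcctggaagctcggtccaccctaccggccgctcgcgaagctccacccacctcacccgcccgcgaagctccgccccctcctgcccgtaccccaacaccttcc
Phf10: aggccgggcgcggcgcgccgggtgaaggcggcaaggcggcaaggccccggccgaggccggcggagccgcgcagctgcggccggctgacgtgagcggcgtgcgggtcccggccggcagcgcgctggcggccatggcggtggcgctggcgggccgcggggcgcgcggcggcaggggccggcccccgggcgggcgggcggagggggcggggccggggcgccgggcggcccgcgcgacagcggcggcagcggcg
Smarcc1: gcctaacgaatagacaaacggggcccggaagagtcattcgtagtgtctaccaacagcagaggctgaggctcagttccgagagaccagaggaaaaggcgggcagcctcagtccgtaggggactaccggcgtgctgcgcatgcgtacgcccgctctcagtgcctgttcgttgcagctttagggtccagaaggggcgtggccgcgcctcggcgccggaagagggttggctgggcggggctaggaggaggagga
Actl6b: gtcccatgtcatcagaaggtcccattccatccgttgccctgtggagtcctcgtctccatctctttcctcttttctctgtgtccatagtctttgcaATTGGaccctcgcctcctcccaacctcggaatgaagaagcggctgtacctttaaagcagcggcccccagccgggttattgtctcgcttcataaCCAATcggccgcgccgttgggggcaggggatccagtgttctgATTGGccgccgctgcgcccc
The search covered both strands of the window from 250 bases before to 50 after the start, for these motifs: CCAAT (the box bound by NF-Y), TTTNGCGC (an E2F-like motif), TTTGAA (a cell cycle homology motif) and TTCAGCACC (one side of the element bound by Rest). CCAAT stood in 4 of the 9 windows, those of Actl6b, Dpf1, Dpf3 and Dpf2, and in 37.4% of 32851 promoters of the same length. In Actl6b it matched 3 times, on the plus strand at -62 to -58 and on the minus strand at -155 to -151 and -20 to -16 from the start. The other motifs matched in 0 of the 9 windows and in 1.38%, 17.9% and 0.371% of all promoters in the order given, so no matches overlapped between motifs. None of the 3 promoters of falling genes held a match, which says only that these letters are not in these windows.

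Smarcc1, a core scaffold of the complex, had the largest fall of the 10 genes at P90. Its signals were 4751, 3405 and 3291 at E8.5, 1383, 979 and 1848 at E13.5 and 884, 633 and 473 at P90. The 3 stages did not overlap, each lying under the one before. The log2 change was -1.46 ± 0.38 at E13.5 (limma adjusted p = 0.0217) and -2.52 ± 0.38 at P90 against E8.5 (limma adjusted p = 0.000697), a 5.75-fold lower mean. Between E13.5 and P90 it was -1.06 ± 0.38 and not called (limma adjusted p = 0.119), but it passed after quantile normalization (adjusted p = 0.0245), with the Actb difference as a covariate (0.042) and without E13.5 replicate 2 (-1.29, 0.0443). The E13.5 call was lost without any 1 of the E8.5 arrays (limma adjusted p from 0.0627 to 0.0925). It was also lost without the 3 arrays of largest Actb difference (-1.06, limma adjusted p = 0.208). The P90 call was made in all 24 settings.

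The dimmer Smarcc1 probe sets had lower estimates that did not pass. Probe set 1455246_at gave 216, 869.7 and 1152 at E8.5, 125, 203 and 627 at E13.5 and 120.3, 152 and 163 at P90, with E8.5 replicate 1 far under the other E8.5 arrays. Probe set 1423417_at gave 143, 311 and 319, then 79.9, 214 and 109.7, then 147, 162 and 184. Neither was called against E8.5 (limma adjusted p over probe sets 0.279 and 0.2 at E13.5, and 0.0581 and 0.411 at P90). With the mean of a gene's probe sets in place of the brightest, the E13.5 change of Smarcc1 was -1.18 (limma adjusted p = 0.0507).

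Smarcc2, the paralog that neurons favour, had signals of 382, 334 and 312 at E8.5, 640.1, 263 and 983 at E13.5 and 724, 521 and 487 at P90. All P90 arrays lay above all E8.5 arrays, while E13.5 replicate 2 lay under them. The changes of 0.67 ± 0.46 at E13.5 and 0.71 ± 0.46 at P90 were not called (limma adjusted p = 0.395 and 0.304). Without E13.5 replicate 2, the E13.5 change was 1.18 (limma adjusted p = 0.0484). That array had the largest Actb difference, the lowest mean signal and the lowest pan-neuronal sum of its stage. The part of RNA integrity, of overall signal and of the cells captured in this difference was not tested.

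**Figure D3:**
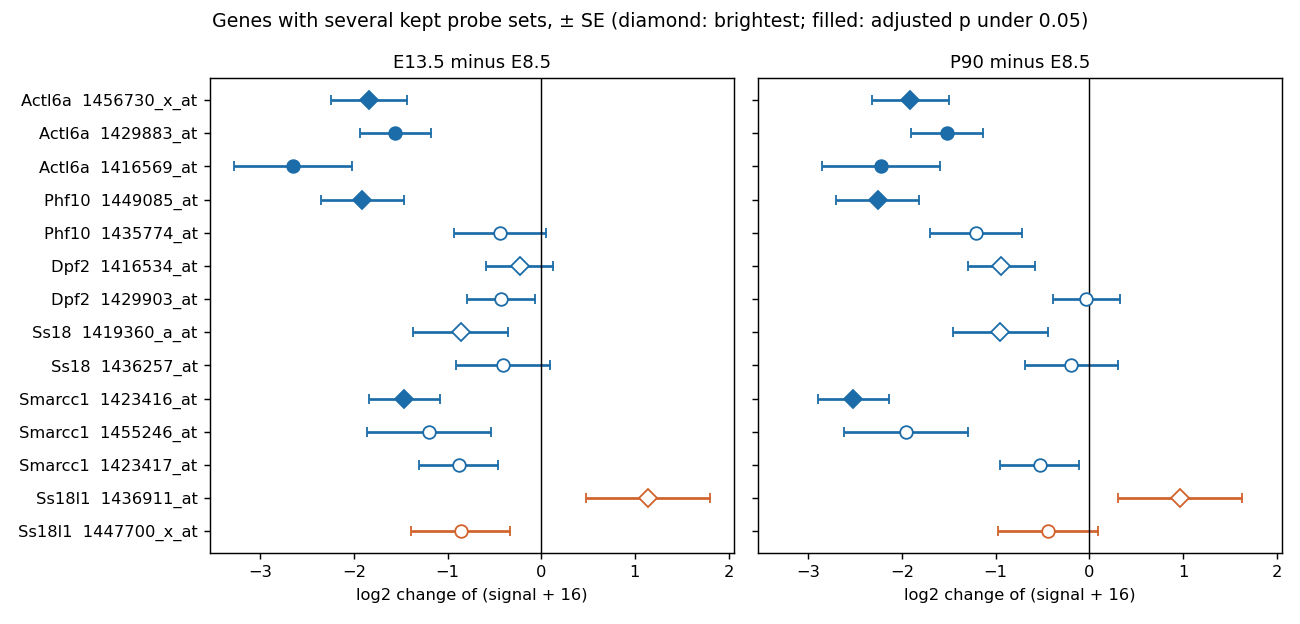
Changes of log2(signal + 16) with SE for every kept probe set of the genes that have several, at E13.5 and P90 minus E8.5, with diamonds for the brightest probe set and filled symbols at an adjusted p under 0.05 over all kept probe sets. All 12 progenitor probe sets lie at or left of 0 in both panels, and the filled ones are the 3 of Actl6a and the brightest of Phf10 and Smarcc1.

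Phf10, the double PHD finger subunit of progenitor complexes, had signals of 894, 1359.7 and 1252 at E8.5, 401, 152 and 411 at E13.5 and 292, 241 and 165 at P90. Both later stages lay wholly under E8.5 and overlapped each other. The log2 change was -1.91 ± 0.44 at E13.5 (limma adjusted p = 0.0115) and -2.26 ± 0.44 at P90 (limma adjusted p = 0.00337), the mean being 3.64-fold and 5.02-fold lower. Its other probe set, 1435774_at, gave 216, 304 and 324, then 331, 89.1 and 262, then 179, 110.3 and 66, and was not called at E13.5 (-0.44 ± 0.49, limma adjusted p over probe sets = 0.633) or at P90 (-1.21 ± 0.49, 0.104). The E13.5 call of Phf10 was lost with the mean of both probe sets (-1.17, limma adjusted p = 0.0953) and without E8.5 replicate 2 (0.0615) or 3 (0.0516), while the P90 call was made in all 24 settings.

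Dpf2, a reader of histone acylation used by BAF in many cell types, was not called. Its signals were 2002, 1917 and 2015 at E8.5, 1777, 1223 and 2188 at E13.5 and 1158, 1281 and 728 at P90. The E13.5 arrays straddled the E8.5 values, and all P90 arrays lay under them. The changes of -0.23 ± 0.36 and -0.94 ± 0.36 were not called (limma adjusted p = 0.741 and 0.0837), the second passing in 3 of 24 settings, 1 of them without E13.5 replicate 2 (0.0431). The dimmer Dpf2 probe set had a P90 change of -0.03 ± 0.36, with signals of 81 to 213 at E8.5 and 109 to 125 at P90.

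Dpf1, a neuronal relative of Phf10, had signals of 347, 219 and 269 at E8.5, 435 and 506 at E13.5, and 205, 315 and 194 at P90; the cell of E13.5 replicate 2 was empty. Both E13.5 values lay above all arrays of the other stages. The change was 0.75 ± 0.40 at E13.5 against E8.5 (limma adjusted p = 0.261) and -0.97 ± 0.40 at P90 against E13.5 (limma adjusted p = 0.192), each from 2 E13.5 values, and neither was called in any of 21 settings that tested them. At P90 against E8.5 it was -0.22 ± 0.36 (limma adjusted p = 0.712). A second Dpf1 probe set had signals of 1 to 4.87 with 3 empty cells and did not pass the filter.

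Dpf3, the other neuronal relative and also a subunit of muscle complexes, gave 48.2, 52.8 and 26.5 at E8.5, 34.5, 55.8 and 52.4 at E13.5 and 59.3, 46.5 and 37.1 at P90. The stages overlapped throughout. Its changes were 0.13 ± 0.27, 0.00 ± 0.27 and 0.14 ± 0.27 in the 3 comparisons (limma adjusted p = 0.811, 0.998 and 0.767). The second Dpf3 probe set, at 2.36 to 12.4, did not pass the filter.

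Ss18, the scaffold of progenitor complexes, gave 2118, 2793 and 2536 at E8.5, 1709, 788 and 1837 at E13.5 and 2652, 1134 and 683 at P90. The E13.5 arrays lay under all E8.5 arrays, but P90 replicate 1 reached the E8.5 values. The changes of -0.86 ± 0.50 and -0.95 ± 0.50 were not called (limma adjusted p = 0.304 and 0.205). Without P90 replicate 1, the P90 change was -1.47 (limma adjusted p = 0.0291). That array had the lowest chromaffin sum of its stage and the highest mean signal (306 against 225 and 175). The part of cell content and of overall signal in this was not tested. The second probe set, 1436257_at, overlapped in all stages (80.5 to 372, changes of -0.41 and -0.19), and the third, at 3 to 20.9, did not pass the filter.

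Ss18l1, its neuronal paralog and an activator of dendrite genes, gave 165, 212 and 168 at E8.5, 940.3, 121 and 601 at E13.5 and 726, 243 and 279.9 at P90. All P90 arrays and E13.5 replicates 1 and 3 lay above E8.5, and E13.5 replicate 2 lay under it. The changes of 1.14 ± 0.65 and 0.97 ± 0.65 were not called (limma adjusted p = 0.292 and 0.321). Without E13.5 replicate 2 the E13.5 change was 1.97 (limma adjusted p = 0.0163), and with the Actb difference as a covariate it was 1.32 (0.0181). Its other probe set, 1447700_x_at, had signals of 1 to 45.9 and an E13.5 change of the opposite sign (-0.86 ± 0.53, limma adjusted p over probe sets = 0.337).

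The ratio of a neuronal to a progenitor subunit on the same array was followed as a difference of log2(signal + 16) from its E8.5 mean; its level has no meaning between 2 probe sets, and no test was made. For Actl6b over Actl6a it stood at 3.83, 2.85 and 2.01 on the E13.5 arrays and at 2.28, 2.52 and 3.79 on the P90 arrays, with 0.11, -0.15 and 0.04 at E8.5. For Smarcc2 over Smarcc1 it was 2.31, 1.57 and 2.50 at E13.5 and 3.12, 3.13 and 3.44 at P90, so that every P90 array lay above every E13.5 array. For Ss18l1 over Ss18 it was 2.81, 1.10 and 2.07, then 1.81, 1.51 and 2.42. On each of these 3 ratios all later arrays, E13.5 replicate 2 included, lay above all E8.5 arrays. The share of all gene pairs that do so was not computed, so this has no background to be read against. Of single genes, 18.6% lay wholly above and 17.1% wholly below E8.5 at E13.5, and 20.3% and 23.6% at P90. Dpf1 over Phf10 stood at 2.12 and 2.30 at E13.5 and 1.53 to 2.38 at P90 against -0.54 to 0.68 at E8.5. Dpf3 over Dpf2 overlapped with E8.5 at E13.5 (-0.03, 1.01 and 0.11) and was 1.16, 0.75 and 1.31 at P90. A ratio can rise through either gene. At P90 against E8.5 Dpf1 changed by -0.22 and Phf10 by -2.26, and Dpf3 by 0.14 and Dpf2 by -0.94. Smarcc2 changed by 0.71 and Smarcc1 by -2.52, Actl6b by 0.95 and Actl6a by -1.91, and Ss18l1 by 0.97 and Ss18 by -0.95. From E13.5 to P90 Smarcc2 changed by 0.04 and Smarcc1 by -1.06.

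**Figure D4:**
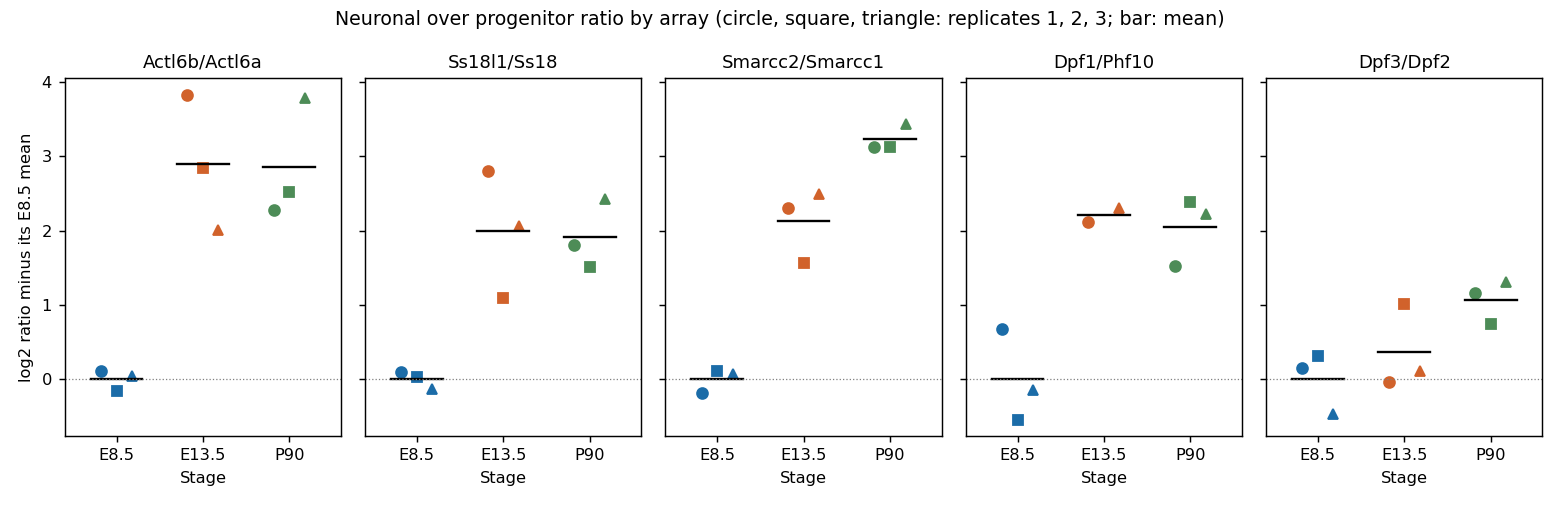
Change of the neuronal over progenitor log2 ratio from its E8.5 mean on each array, for 5 pairs of subunits; symbols are replicates and bars are means. The first 4 pairs stand above their E8.5 arrays on every later array that has a value, and Dpf3/Dpf2 overlaps with E8.5 at E13.5. The share of all gene pairs that separate in this way was not computed. Dpf1/Phf10 has no value on E13.5 replicate 2.

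Among the progenitor subunits, log2 values over the 9 arrays correlated at r = 0.71 to 0.92, highest for Actl6a with Phf10. Of the neuronal subunits, Ss18l1 and Smarcc2 correlated at r = 0.88, Actl6b with Ss18l1 at 0.63, and Dpf3 with the other neuronal subunits at -0.07 to 0.18. Actl6a and Actl6b correlated at r = -0.85. The other pairs of a progenitor and a neuronal subunit compared above did not come near this. They stood at -0.29 (Smarcc1 with Smarcc2), -0.08 (Dpf2 with Dpf3), 0.06 (Phf10 with Dpf1, over 8 arrays) and 0.25 (Ss18 with Ss18l1). These values describe 9 arrays that share 3 stages and the differences between arrays in RNA integrity and overall signal.

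Of 20 other BAF and PBAF subunits tested, 2 rose, 1 fell and 17 were not called at E13.5 against E8.5 (median -0.06), 1 fell at P90 against E13.5 (median -0.32), and 2 rose, 4 fell and 14 were not called at P90 against E8.5 (median -0.80). All genes were called in 16.5%, 9.48% and 23.3% in that order, so these counts stand near the background. Without 1 array they moved widely. The count rising at E13.5 was 4 without E13.5 replicate 2 or P90 replicate 1, and 1 when replicate 1 or 3 of E13.5 or replicate 2 or 3 of P90 was left out. The count falling at E13.5 was 1 only without E13.5 replicate 1 or without P90 replicate 1, and 0 when any other array was left out. The count falling from E13.5 to P90 was 4 without E8.5 replicate 1 and 2 without E8.5 replicate 2 or 3, E13.5 replicate 2 or P90 replicate 1, and that falling from E8.5 to P90 was 8 without E13.5 replicate 2. The ATPases moved apart at P90: Smarca4 fell and Smarca2 rose. Smarca4 (BRG1) had signals of 3097, 2012 and 1927 at E8.5, 2425, 1444 and 1939 at E13.5 and 1244, 1034 and 722 at P90. All of its P90 arrays lay under those of both embryonic stages (P90 against E8.5 -1.22 ± 0.37, limma adjusted p = 0.0334). With the mean of its probe sets the change was -0.25 (limma adjusted p = 0.738). Leaving out 1 array ended the call for each E8.5 array, for P90 replicates 2 and 3 and for E13.5 replicate 3 (0.0534 to 0.131). The call was also lost without the 3 arrays of largest Actb difference (-1.04, limma adjusted p = 0.173).

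Smarca2 (BRM), the alternative ATPase, had signals of 103, 256 and 355 at E8.5, 677, 449 and 900.4 at E13.5 and 1669, 889 and 664 at P90. Every later array lay above every E8.5 array. Its change at P90 was 2.14 ± 0.51 (limma adjusted p = 0.0106), and at E13.5 it was 1.54 ± 0.51 and not called (limma adjusted p = 0.0629), but passed without E13.5 replicate 2 (0.043) or P90 replicate 1 (0.0361). Bicral, a subunit of the noncanonical GBAF complex, rose from 233 ± 82.2 to 865 ± 256 at E13.5 (1.85 ± 0.40, limma adjusted p = 0.0086) and 831 ± 164 at P90 (1.81 ± 0.40, limma adjusted p = 0.00718). The calls of Smarca2 and Bicral at P90 were lost in 1 setting of 24, without the arrays of largest Actb difference (adjusted p = 0.0709 and 0.077), and so was the E13.5 call of Bicral (0.0702).

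Bcl7c, an accessory subunit, fell from 799 ± 276 at E13.5 to 128 ± 19.4 at P90 (-2.45 ± 0.37, limma adjusted p = 0.00171), the 1 call among these genes between those stages; 14 of 24 settings called 2 to 4 of them lower. With the mean of its probe sets the change was -1.07 (limma adjusted p = 0.0358), and -1.21 at P90 against E8.5 (0.01). Against E8.5, where it stood at 614 ± 69.5, it also fell to P90 (-2.13 ± 0.37, limma adjusted p = 0.00175). The core subunits Smarce1 (2038 ± 364 to 617 ± 139, -1.71 ± 0.37, limma adjusted p = 0.00655) and Smarcb1 (1009.6 ± 541 to 265 ± 74, -1.77 ± 0.42, 0.0104) fell at P90 against E8.5. Smarcb1 was not called when probe sets marked _x_at or _s_at were set aside (-0.60, limma adjusted p = 0.226). At E13.5, Smarcd3, a subunit of heart and neuronal complexes, rose (1.42 ± 0.42, limma adjusted p = 0.0401) and Smarcd1 fell (-1.01 ± 0.30, limma adjusted p = 0.0385), but their calls were lost in 9 and 12 of 24 settings, in both genes when E8.5 replicate 2 or 3, E13.5 replicate 3 or P90 replicate 2 or 3 was left out, for Smarcd3 also without E13.5 replicate 1, and for Smarcd1 also without E8.5 replicate 1 or E13.5 replicate 2.

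Of 7 regulators linked to the exchange, 1 fell at E13.5 and 2 at P90 against E8.5, where 7.22% and 12.5% of all genes were called lower, and 0 were called at P90 against E13.5 by limma (0 at an unadjusted p under 0.05). Rest, the repressor of neuronal genes, had signals of 1123, 1047 and 915 at E8.5, 355, 253 and 358 at E13.5 and 568, 296 and 235 at P90. Every later array lay under every E8.5 array (-1.64 ± 0.39, limma adjusted p = 0.0143 at E13.5, and -1.54 ± 0.39, 0.0149 at P90). Both calls were lost without E8.5 replicate 1 (adjusted p = 0.051 and 0.0516) or 2 (0.0644 and 0.0603), and the P90 call without P90 replicate 2 or 3 as well (0.0663 and 0.0604). Without the 3 arrays of largest Actb difference both were lost too (limma adjusted p = 0.12 and 0.112). The corepressor of Rest, Rcor2, fell at P90 (295 ± 107 to 107 ± 22.1, -1.30 ± 0.35, limma adjusted p = 0.0192). This call was lost without E8.5 replicate 1 (0.0676) and without P90 replicate 2 (0.0903) or 3 (0.0513). It was also lost without the 3 arrays of largest Actb difference (-0.88, limma adjusted p = 0.114).

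The splicing repressors Ptbp1 and Ptbp2, themselves exchanged in neurons, were not called in any comparison. Ptbp1 had mean signals of 1148, 1117 and 1138 (E13.5 against E8.5 -0.04 ± 0.34, limma adjusted p = 0.959), but with the mean of its probe sets it fell by 1.31 (limma adjusted p = 0.0075). With that mean its P90 change against E8.5 was -0.93 (limma adjusted p = 0.0296). Ptbp2 gave 1029 to 1560.0 at E8.5, 178 to 2302 at E13.5 and 219 to 686 at P90, with a P90 change against E8.5 of -1.91 ± 0.78 (limma adjusted p = 0.101). That change passed in 5 of 24 settings, among them without E13.5 replicate 2 (0.0111) or P90 replicate 1 (0.0453). At P90 against E13.5 it was -1.24 (limma adjusted p = 0.418) and passed in 3 of 24 settings, among them with the mean of its probe sets (-2.65, 0.00769). With that mean its E13.5 change against E8.5 was 0.50 in place of -0.67, neither of them called.

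Actl6a also serves the INO80 and TIP60 remodelling and acetylation complexes. Of 24 other genes of these complexes that were tested, 0 rose and 4 fell at E13.5 (median -0.37), limma called 0 at P90 against E13.5 (1 lower at an unadjusted p under 0.05), and 5 fell at P90 against E8.5 (median -0.46). All genes tested were called lower in 7.22%, 5.94% and 12.5% in that order, and higher in 9.27%, 3.54% and 10.9%. The medians of all genes were 0.02, -0.05 and 0.00. The 2 helicases both complexes share moved most. Ruvbl1 fell from 809 ± 185 to 188 ± 168 at E13.5 (-2.39 ± 0.59, limma adjusted p = 0.0167) and 127 ± 48.6 at P90 (-2.55 ± 0.59, 0.00898). Ruvbl2 fell from 1086 ± 392 to 276 ± 139.9 (-1.96 ± 0.42, limma adjusted p = 0.00734) and 147 ± 25.7 (-2.71 ± 0.42, 0.000768). Also called at E13.5 were Uchl5 (-1.87) and Actr5 (-1.30), and at P90 Uchl5 again, Yeats4 (-1.64) and Mcrs1 (-1.44). The E13.5 count was 1 without E8.5 replicate 2 or without E13.5 replicate 3, 2 without E8.5 replicate 3 or E13.5 replicate 2, and 0 without the 3 arrays of largest Actb difference. The P90 count was 2 without E8.5 replicate 3 or P90 replicate 3 and 3 without E8.5 replicate 2.

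All 11 genes of cycling cells that were tested fell at E13.5 (median -2.47), where 3 of 5 progenitor subunits did. From E13.5 to P90, 7 of the 11 fell again (median -2.29), all but Aurkb, Mcm2, Pcna and Tyms, and 0 of 5 progenitor subunits were called; the difference between these groups was not tested. Mki67, a marker of proliferation, had signals of 3159.7, 3804 and 3954 at E8.5, 977, 529.8 and 1072 at E13.5 and 63.8, 43.7 and 47.8 at P90. Its change from E13.5 to P90 was -3.64 (limma adjusted p = 0.000164), the largest fall of the 11, beside -0.07 for Actl6a, -0.35 for Phf10 and -1.06 for Smarcc1. The cycling genes that were not called there changed by -0.62 (Aurkb), -0.97 (Mcm2), -0.40 (Pcna) and -0.17 (Tyms), a range that overlaps with that of the subunits. Pan-neuronal genes rose at E13.5 by a median of 4.34 over the 9 tested, and at P90 4 of them were called higher than at E8.5. Muscle genes, named here because Dpf3 also serves muscle, rose at E13.5 in 2 of 7 tested, with a signal summed over 6 of them of 1215, 396 and 619 at E13.5 against 350.1 to 488 at E8.5.

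Over the 9 arrays and 11968 named genes with no empty cell, the genes whose log2 values followed Actl6a most closely were Smo, Sf3a2, Ttf2, Ppwd1 and Nemp1 (Pearson r from 0.978 to 0.989). Smo, the transducer of hedgehog signalling, had mean signals of 1336, 355 and 296 at E8.5, E13.5 and P90. The splicing factor Sf3a2 had means of 3846, 1382 and 1343. Both rest on probe sets marked _s_at, and with those marked _x_at or _s_at set aside the E13.5 change of Smo went from -1.88 to -0.96 (limma adjusted p = 0.16) and that of Sf3a2 from -1.47 to -0.45 (0.416). At P90 the change of Smo was then -0.38 (0.563) in place of -2.18. For Actl6b they were Dnajc18, Blvrb, Kcnt1, Susd2 and Kazald1 (r from 0.921 to 0.941). Kcnt1, a sodium-activated potassium channel, had means of 54, 344 and 142, and Dnajc18 of 134, 262 and 267.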

How the data were processed

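Each array received cRNA prepared from 400 ng total RNA, per the labels' protocols. The deposited table holds 1 probe set intensity per sample that is linear and never under 1; the submitters' processing notes list MAS5, GCOS, RMA and GCRMA, and which of them made it is not given in the sources used here. Of 405909 cells 1.98% were empty. Gene names came from the platform annotation. Members and gene lists were chosen with earlier results of these data known.

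Computed here: log2(signal + 16) without further scaling. Probe sets with 1 symbol were kept if they passed the 40th percentile of all values (signal 26.1) on at least 3 of 9 arrays with at least 2 values per stage. Stages were compared with limma 3.58.1 in R 4.3.3 (lmFit, eBayes with a trend, two-sided, 6 residual degrees of freedom), a fit tested on simulated data. Few arrays limit the precision. Named genes were all 10 members, called genes of the other lists by size of change, set check genes, and the 5 closest in pattern to Actl6a and Actl6b. The alternatives changed scaling, added constant, filter, probe set choice, variance model, arrays fitted, replicate block, RNA integrity and empty cells, and left out each array.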

Additional observations from a re-analysis of the deposited data

How the results depend on the processing

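In 24 alternative settings, 9 of which leave out 1 array, the 3 progenitor calls at P90 against E8.5 were the firmest, with counts of 2 to 4. At E13.5 the progenitor count was 1 with the mean of a gene's probe sets and 1 without the 3 arrays of largest Actb difference, and 1 to 3 with 1 array left out (1 without E8.5 replicate 2 or 3). The neuronal count at E13.5 was 0 after median centring, with no filter, with the filter at the 60th percentile, without a variance trend and without the arrays of largest Actb difference, 2 with the Actb difference as a covariate, and 0 to 3 with 1 array left out (3 without E13.5 replicate 2). At P90 against E8.5 the neuronal count was 0 under those 5 settings, after quantile normalization and with a constant of 64, and 0 to 1 with 1 array left out. At P90 against E13.5 the progenitor count was 1 after quantile normalization and with the Actb covariate, and 0 to 1 with 1 array left out. The F-test called 2 members without the arrays of largest Actb difference.

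All genes called numbered 2267 for E13.5 against E8.5, 1303 for P90 against E13.5, and 3209 between P90 and E8.5. Without the arrays of largest Actb difference they were 1487 in the first and 1895 in the third, and in the second they were 832 with only the arrays compared and 2046 with the Actb covariate. With 1 array left out they ranged from 1273 to 2822 (lowest without E8.5 replicate 2), 583 to 1703 (without E13.5 replicate 3) and 1955 to 3888 (without E8.5 replicate 2). Median centring moved the median of all genes from 0.00 to -0.15 at P90 against E8.5. Bcl11a, not called at P90 against E8.5 (-0.96), was called higher without P90 replicate 1 (1.65, limma adjusted p = 0.0204, from 0.0204 to 0.946 over settings), when another probe set stood for it. At E13.5 against E8.5 its change was 0.62 and not called (limma adjusted p = 0.529). There it was called higher in 7 of 24 settings, with changes of up to 4.14. At P90 against E13.5 it was -1.57 and not called (limma adjusted p = 0.111), but was called lower in 8 of 24 settings. The cause of the other changes was not tested, apart from fewer arrays in the settings that leave some out. Same-numbered arrays of different stages deviated together at r = -0.37 to 0.39 and 0 of 9 correlated best with their own number, so the numbers were not taken as pairs; with the replicate block the progenitor and neuronal counts were 3 and 1 at E13.5, 0 and 0 at P90 against E13.5, and 3 and 1 at P90 against E8.5, with 2151, 1239 and 3172 genes called. Signals near the filter level limit what can be said of Actl6b and Dpf3.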
